A study of Mus musculus with 22 samples.

Results

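The collagen genes described here were 36 of the 44 protein-coding genes of a 54838-gene table whose symbol is Col, a number, the letter a and a number. The genes were chosen by their measured raw read counts, which had to sum to 50 or more over all 22 libraries. Just inside it lay Col22a1 with 55 counts, Col17a1 with 62 and Col25a1 with 68. Just outside lay Col11a1 with 42 counts and Col6a6 with 38, followed by Col9a3 with 32, Col9a1 with 19, Col26a1 with 12, Col10a1 with 10, Col2a1 with 4 and Col19a1 with 1. By the form of their proteins, the 36 genes fell into 9 fibrillar chains, 6 basement membrane network chains, 5 beaded filament chains, 6 fibril-associated chains, 2 multiplexins, 4 transmembrane chains, 2 short-chain network chains, 1 anchoring fibril chain and 1 other chain.

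RNA was sequenced from the small intestine of female FVB/N mice aged 8 to 14 weeks. GRWT mice carry the wild-type glucocorticoid receptor, and GRDim mice, bred like them from heterozygous crosses, carry a point-mutant receptor that forms dimers less well. Mice of each genotype drank normal water or water with 25 mM ZnSO4 for 7 days, and no further agent is named in the labels of the libraries. The title and design text of the series also mention dexamethasone, a synthetic glucocorticoid, and sequencing in 2 sets, and no label says which libraries, if any, either applies to. Of the 22 libraries, 12 carry the tissue label ileum (the washed tissue). The other 10 carry the label IEC, short for intestinal epithelial cells (the inside of a flushed stretch of distal ileum, scraped out after lysis buffer). The mutation is a point change, so the level of the receptor's own transcript does not check the genotype labels. The labels do not tie libraries to animals, so p-values measure the spread between these libraries only.

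Collagens are extracellular proteins in which 3 chains wind into a helix. Collagens I, III and V form the fibrils that give the submucosa and the muscle coat of the gut their strength, and collagen IV forms the sheet-like network of basement membranes under the epithelium and around smooth muscle cells, vessels and glia. Collagen VI makes beaded filaments close to cells, and the smaller classes decorate fibrils, anchor membranes or sit in the cell membrane. Fibroblasts and smooth muscle cells are the main known makers of the fibrillar chains in the gut wall.

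The libraries fell into groups that the labels do not describe. Myh11, the smooth muscle myosin heavy chain, lay between 298 and 463 CPM (read counts scaled to a common library size) in 12 libraries, called muscle-rich here, and between 3.22 and 20.5 CPM in the other 10, called muscle-poor. Of the ileum libraries 5 were muscle-rich, and of the IEC libraries 7, so the IEC label goes against the muscle content of most libraries that carry it. Each condition held 3 muscle-rich libraries: ileum replicate 1 and IEC replicates 4 and 5 for both GRWT conditions, IEC replicates 4, 5 and 6 for GRDim mice on water, and ileum replicates 1, 2 and 3 for GRDim mice on zinc. Within the muscle-rich GRDim libraries, zinc and the tissue label therefore cannot be told apart. The summed level of 10 smooth muscle markers was 1698 to 2765 CPM in muscle-rich and 192 to 327 CPM in muscle-poor libraries, that of 8 fibroblast markers 812 to 1358 and 12.02 to 41.3 CPM, and that of 10 epithelial markers 18183 to 23162 and 27959 to 47824 CPM. Library totals ran from 13149951 to 15620744 counts, and 3 counts, the limit that a count of 0 allows, correspond to 0.192 to 0.228 CPM (counting error only). One muscle-poor library, GRWT zinc ileum replicate 3, stood apart: Fabp6, a bile acid binding protein of the ileum, was at 11.7 CPM there and at 4387 to 10866 CPM in the others.

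Most collagen genes were higher in the muscle-rich libraries. In 29 of 36 genes every muscle-rich library lay above every muscle-poor library, in 0 genes the reverse held, and in 7 genes the ranges overlapped. The same separation held for 16.3% of the 14868 protein-coding genes with 50 or more counts. The muscle-rich mean was a median of 25.4 times the muscle-poor mean over the 33 genes with more than 3 muscle-poor counts, and above 10 times in 24 of them, against 1.01 over all those protein-coding genes. Without GRWT zinc ileum replicate 3 the median was 26.7. Because the split was found in these data and the genes were chosen with it known, these values are a description and no test was made. In bulk tissue, fewer cells of a type and less collagen RNA per cell cannot be told apart. The summed level of the 36 genes was 933 to 1431 CPM, with a median of 1218, in muscle-rich libraries and 34.6 to 70.7 CPM, with a median of 43.6, in muscle-poor libraries.

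**Figure D1:**
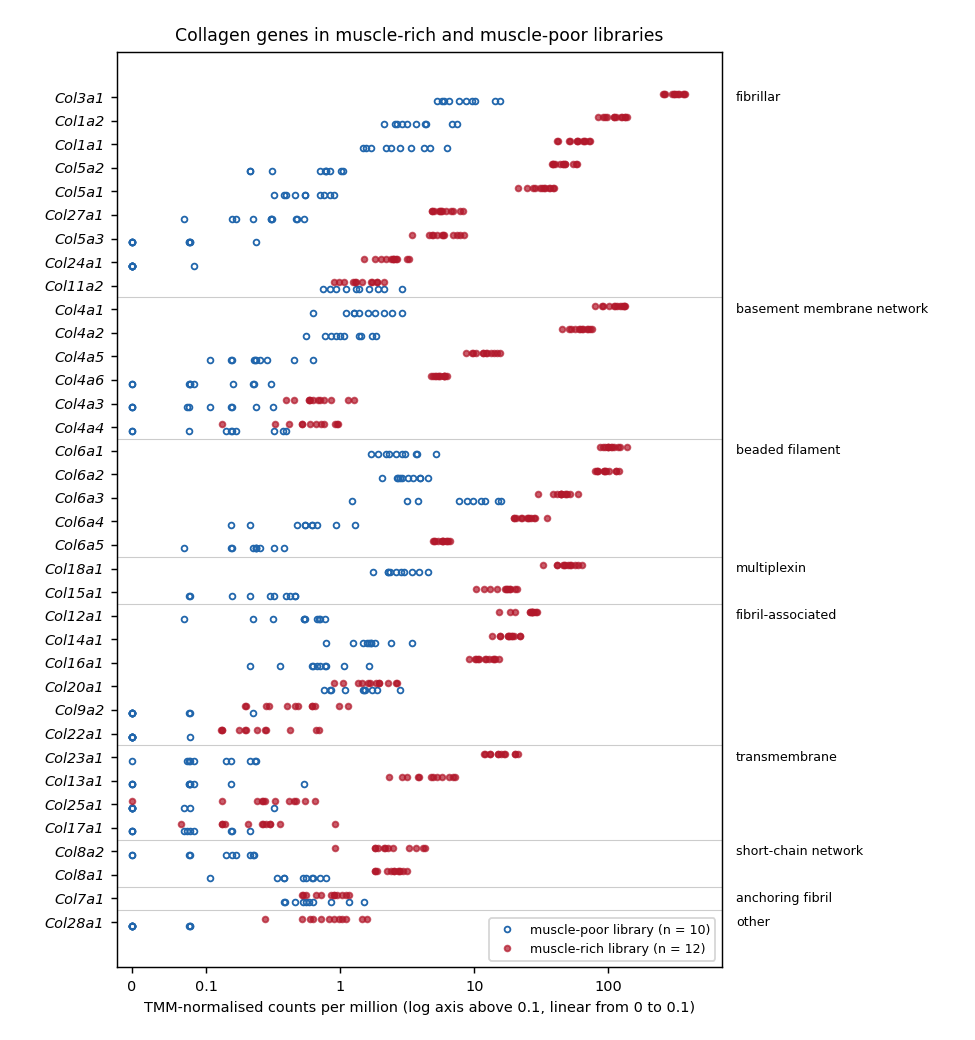
TMM-normalised CPM (horizontal axis, logarithmic above 0.1) of each of the 36 collagen genes, by class, in the 12 muscle-rich (filled red) and 10 muscle-poor (open blue) libraries, 1 point per library. Red and blue points are apart for 29 genes and overlap for 7, among them Col11a2, Col20a1 and Col7a1.

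The fibrillar chains held the largest part of the collagen RNA in the muscle-rich libraries. Col3a1, the single chain of collagen III, was the most abundant member per kilobase of transcript. Its level was 301, 375 and 366 CPM in GRWT mice on water, 265, 329 and 254 CPM in GRWT mice on zinc, 323, 312 and 336 CPM in GRDim mice on water and 261, 308 and 360 CPM in GRDim mice on zinc (muscle-rich libraries in the order given above, as in all such lists). The muscle-poor libraries ran from 5.30 to 15.6 CPM, and the ratio of the means was 35.3. Col1a2, the second chain of collagen I, was at 95.1, 133 and 133 CPM in GRWT mice on water, 91, 111 and 83.2 CPM in GRWT mice on zinc, 124, 114 and 127 CPM in GRDim mice on water and 97.1, 111 and 137 CPM in GRDim mice on zinc. Its muscle-poor range was 2.13 to 7.46 CPM. The 4 conditions overlapped one another for Col3a1, and for Col1a2 all did but GRWT mice on zinc and GRDim mice on water, which differ in both genotype and zinc. Col1a1, the major chain of collagen I, had a muscle-rich median of 59.3 CPM and a ratio of 19.3. Col5a2 and Col5a1, the chains of collagen V that set fibril width, had ratios of 69.8 and 54.5, and Col5a3, another collagen V chain, had 109.1 on 7 muscle-poor counts in all. That ratio was 172 without GRDim zinc IEC replicate 6. Col24a1, a minor fibrillar chain, had 1 muscle-poor count, and its ratio of pooled counts per total was 363 with an exact 95% interval of 64.8 to 14358. Such intervals, here and for Col22a1 and Col28a1 below, cover counting error only, not the spread between libraries, and all 3 genes reached the count rule through their muscle-rich reads. Col11a2, a cartilage-type chain, was at 0.894 to 2.13 CPM in muscle-rich and 0.745 to 2.91 CPM in muscle-poor libraries, a ratio of 0.98, the lowest of all members.

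Col4a1 and Col4a2, the chains that make up the collagen IV of most basement membranes, were on average 68.0 and 53.9 times higher in muscle-rich libraries. Col4a1 was at 90.4, 132 and 131 CPM in GRWT mice on water, 92.1, 127 and 80.2 CPM in GRWT mice on zinc, 122, 115 and 110.2 CPM in GRDim mice on water and 101, 113 and 134 CPM in GRDim mice on zinc. Col4a2 was at 50.8, 72.6 and 69.1 CPM, 53.0, 71.1 and 45.2 CPM, 63.2, 60.1 and 61.5 CPM, and 56.9, 65.2 and 75.9 CPM in the same order. In both, the lowest value was in GRWT zinc IEC replicate 5, then in GRWT water ileum replicate 1, and the 4 conditions overlapped. Col4a5 and Col4a6, chains of basement membranes around smooth muscle, had ratios of 44.1 and 44.9. Col4a3 and Col4a4, chains best known from kidney glomerulus, had muscle-rich means of 0.72 and 0.62 CPM and ratios of 6.47 and 3.49. Col4a4 overlapped between the sides of the split, and Col4a3 shares 563 exon bases with C430014B12Rik on the other strand, which had 116 counts in all.

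All 3 pairs of collagen IV genes lie head to head, each pair on its own chromosome and transcribed away from a shared stretch. Col4a1 and Col4a2 overlap by 22 bases at their starts (chr8:11312805-11312826, GRCm38), and that stretch is shown because the RNA levels of this pair moved together across libraries. Col4a4 and Col4a3, the low pair, are 71 bases apart (chr1:82586850-82586920), and Col4a6 and Col4a5 on chromosome X are 1308 bases apart. Both stretches are given on the forward strand from the reference genome, with the capitals marking a GGGCGG, the letters of a GC box.
Col4a1 and Col4a2 start: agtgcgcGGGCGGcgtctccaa
between Col4a4 and Col4a3: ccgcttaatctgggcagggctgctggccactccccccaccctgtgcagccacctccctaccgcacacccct
The ratio of Col4a1 to Col4a2, both per kilobase of transcript, was 1.74 at the median of the muscle-rich libraries, with a range of 1.69 to 1.88 and a coefficient of variation of 3.78%, while Col4a1 itself ranged from 80.2 to 134 CPM over the same libraries. In the muscle-poor libraries, where both genes were below 3 CPM, the ratio ran from 0.65 to 2.05. The ratio of Col4a5 to Col4a6 ranged from 1.85 to 2.54, and that of Col4a3 to Col4a4, at low counts, from 0.591 to 7.68 in the muscle-rich libraries. There the coefficient of variation was 11.8% for the head-to-head Col4a5 to Col4a6. It was 4.17% for Col1a1 to Col1a2, which lie on different chromosomes, and 5.24% for Col6a1 to Col6a2. The part of a shared start in these ratios was not tested. Reads in the 22 shared bases cannot be given to 1 of the genes without their strand.

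The beaded filament chains followed the fibrillar chains in summed level per kilobase in the muscle-rich libraries. Col6a1 and Col6a2 are the shorter chains of collagen VI. Col6a1 was at 98.9, 139 and 122 CPM in GRWT mice on water, 94.8, 109.8 and 86.4 CPM in GRWT mice on zinc, 98.7, 98.9 and 105 CPM in GRDim mice on water and 90.9, 107 and 118 CPM in GRDim mice on zinc. Col6a2 was at 82.6, 119.5 and 113 CPM, 83.5, 94.5 and 79.8 CPM, 95.9, 93.3 and 101 CPM, and 82.2, 92.8 and 114 CPM in the same order. The conditions overlapped for both chains, and their muscle-poor maxima were 5.15 and 4.55 CPM. Col6a3, the long chain of collagen VI, differed from the other abundant members in the muscle-poor libraries. It was at 3.78, 15.9 and 12 CPM in GRDim mice on water, 15.1, 9.77 and 8.88 CPM in GRDim mice on zinc, 11.2 and 3.15 CPM in GRWT mice on water and 1.22 and 7.66 CPM in GRWT mice on zinc. The muscle-rich median was 44.3 CPM and the ratio of the means was 5.11, and per kilobase Col6a3 ranked 10 among the members on the muscle-rich side and 2 on the muscle-poor side. The ratio of Col6a3 to Col6a1 per kilobase was 0.158 to 0.261 in muscle-rich libraries and 0.243 to 4.02 in muscle-poor libraries. Col6a4 and Col6a5, alternative long chains, had ratios between the sides of 41.2 and 25.4.

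The fibril-associated chains sit on the surface of fibrils and do not form fibrils themselves. Col14a1, the most abundant of them per kilobase, was at 15.5, 22.1 and 19.7 CPM in GRWT mice on water, 13.6, 19.2 and 15.5 CPM in GRWT mice on zinc, 18.3, 17.8 and 18.3 CPM in GRDim mice on water and 21.9, 19.1 and 18.0 CPM in GRDim mice on zinc, and its ratio was 10.3. Col16a1 was at 9.16, 15.2 and 13.9 CPM, 10.8, 10.7 and 10.1 CPM, 14.2, 11.9 and 12.8 CPM, and 10.3, 12.2 and 14.1 CPM in the same order. For Col14a1 all conditions overlapped, and for Col16a1 all did but GRWT mice on zinc and GRDim mice on water, which differ in both genotype and zinc. Col12a1, a chain of tissues under stretch, had a ratio of 49.4. Col20a1 had muscle-rich and muscle-poor medians of 1.76 and 1.49 CPM and a ratio of 1.23. It shares 79 exon bases with BX649560.1 on the same strand, which had 1040 counts in all, so its reads are uncertain. Col9a2, a chain of collagen IX, was at or under 3 counts in 12 of the 22 libraries. Col22a1 was at or under 3 counts in 16 libraries, with 1 muscle-poor count and a ratio of pooled counts of 43.5 (exact 95% interval 7.49 to 1751, counting error only).

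The multiplexins Col18a1 and Col15a1 carry proteoglycan chains and lie in or next to basement membranes. Col18a1 was at 32.4, 47.4 and 52.0 CPM in GRWT mice on water, 41.4, 50.5 and 41.5 CPM in GRWT mice on zinc, 59.1, 45.8 and 56.4 CPM in GRDim mice on water and 47.1, 53.1 and 63.5 CPM in GRDim mice on zinc. Col15a1 was at 11.9, 17.9 and 18.5 CPM, 14.7, 20.99 and 10.3 CPM, 18.4, 13.2 and 16.8 CPM, and 17.3, 17.6 and 20.2 CPM in the same order. Their ratios between the sides were 17.1 and 57.4, and the 4 conditions overlapped. The short-chain network gene Col8a1 was at 1.82, 3.13 and 2.75 CPM, 1.81, 2.77 and 2.41 CPM, 2.93, 2.24 and 1.88 CPM, and 2.50, 2.54 and 2.72 CPM, again in that order. Its ratio was 4.91, and its partner Col8a2, described below, had 20.01. Both chains form the collagen VIII of vessel walls.

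Among the remaining classes, the transmembrane chain Col23a1 had the highest ratio among the 33 genes with more than 3 muscle-poor counts, 124 on 16 such counts, ahead of Col5a3 and Col5a2, although Col5a3 reached 172 with 1 library left out, as given above. Col13a1, another transmembrane chain, had 44.2 on 12 muscle-poor counts, and 78.6 without GRWT zinc ileum replicate 3, where it reached 0.532 CPM. Like other members low in the muscle-poor libraries, Col23a1, Col5a3 and Col13a1 reached the count rule through their muscle-rich reads. Col17a1, a chain of epithelial hemidesmosomes, was at or under 3 counts in 15 libraries and Col25a1 in 12, with ratios of 3.36 and 7.18. Col7a1, which forms the anchoring fibrils under squamous epithelia, was low throughout, at 1.10, 0.902 and 1.17 CPM in GRWT mice on water, 1.04, 0.662 and 0.550 CPM in GRWT mice on zinc, 0.717, 0.856 and 0.942 CPM in GRDim mice on water and 0.903, 0.520 and 0.530 CPM in GRDim mice on zinc. Its ratio was 1.18, so that Col11a2, Col7a1 and Col20a1 were the 3 lowest. Col28a1, known from Schwann cells and put in no class here, was at 0.520, 0.902 and 1.58 CPM, 1.10, 1.02 and 0.275 CPM, 0.978, 0.593 and 0.824 CPM, and 0.6249, 0.716 and 1.46 CPM in the same order. It had 3 muscle-poor counts and a ratio of pooled counts of 44.1 (exact 95% interval 14.8 to 216, counting error only).

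Per kilobase of transcript, the collagen RNA of the muscle-rich libraries had a steady composition. The fibrillar chains held a median of 46.3% of the summed level, the beaded filament chains 27.3%, the basement membrane chains 13.6%, the multiplexins 6.32% and the fibril-associated chains 3.83%. The 10 most abundant genes, from Col3a1 with a mean of 56.8 CPM per kilobase to Col6a3 with 5.03, held 84.7% to 87.2% of the sum in every muscle-rich library. In the muscle-poor libraries, where the sum was 6.33 to 12.6 CPM per kilobase against 170 to 260, the basement membrane share was lower, at 4.44% to 11.1% against 12.5% to 14.7%. The fibril-associated share was higher there, at 7.74% to 12.9% against 3.5% to 4.49%. Col20a1, whose reads are uncertain, held 1.90% to 7.59% of the sum in the muscle-poor libraries and 0.0941% to 0.226% in the muscle-rich ones. The groups did not overlap in either class share. The anchoring fibril chain Col7a1 held a median of 0.0408% and 0.727% of the summed level between muscle-rich and muscle-poor libraries.

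**Figure D2:**
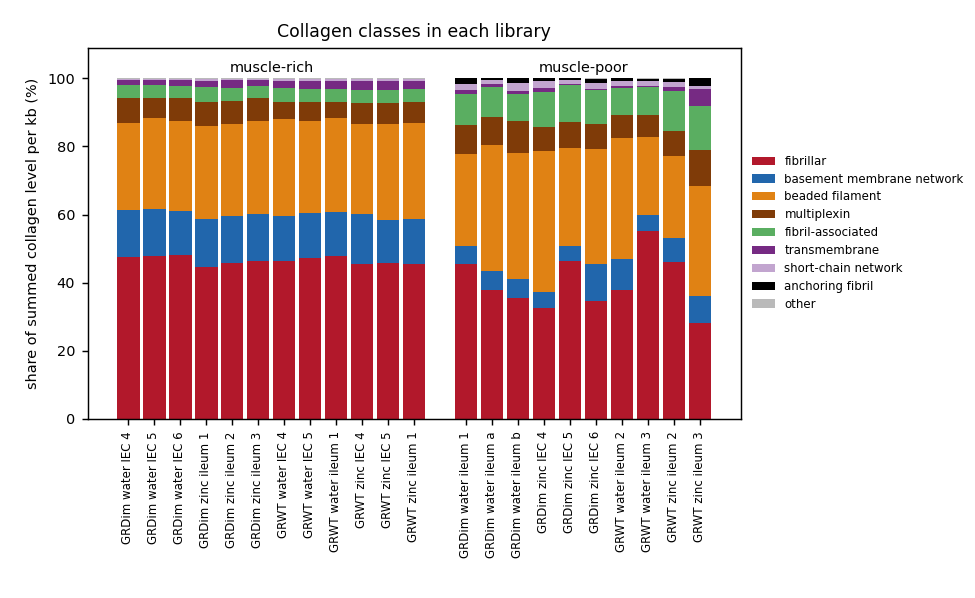
Share (%) of each collagen class in the summed collagen level per kilobase (stacked bars), 1 bar per library, muscle-rich and muscle-poor libraries side by side. The fibrillar and beaded filament chains fill most of every bar, and the basement membrane part takes 12.5% to 14.7% of the muscle-rich bars and 4.44% to 11.1% of the muscle-poor bars.

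Some pairs of abundant chains kept narrow ratios in the muscle-rich libraries. Col6a1 to Col6a2 was 1.05, with a range of 0.992 to 1.15, and Col1a1 to Col1a2 was 0.474, with a range of 0.421 to 0.492. Col3a1 to Col1a1, chains of different collagens, was 5.63, with a range of 5.27 to 6.65, against 2.40 to 4.46 in the muscle-poor libraries. The size of such a ratio depends on the transcript length used: with all exons of a gene joined, Col1a1 to Col1a2 was 0.985 and Col6a1 to Col6a2 was 2.09. The spread between libraries does not depend on the length. Col8a1 to Col8a2, at lower counts, varied more, from 0.360 to 2.73.

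**Figure D3:**
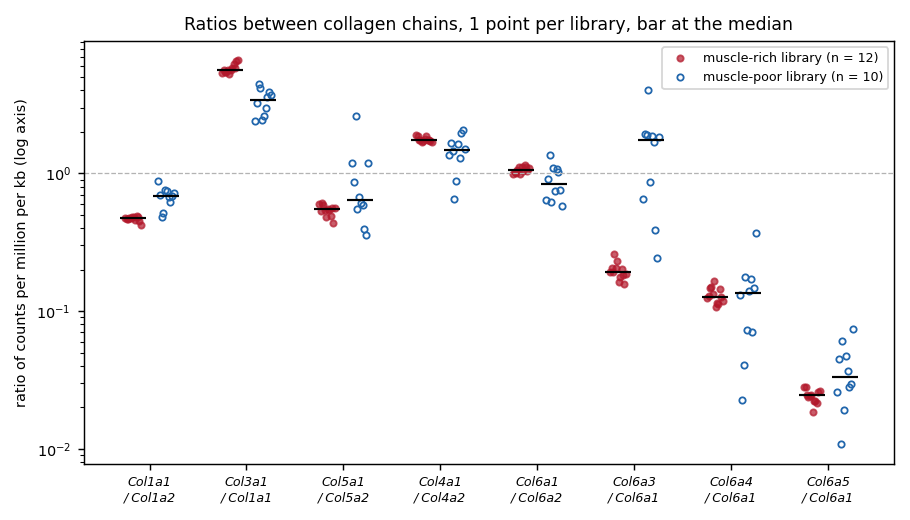
Ratio of CPM per kilobase between collagen chains (logarithmic axis), 1 point per library with a bar at the median, for muscle-rich and muscle-poor libraries. Col4a1 to Col4a2 lies between 1.69 and 1.88 in the red, muscle-rich points, and Col6a3 to Col6a1 at 0.158 to 0.261 there and up to 4.02 in muscle-poor ones.

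The first question of the design, how the receptor mutation bears on these genes without zinc, was asked within the muscle-rich libraries. Changes are log2 fold changes ± SE from edgeR's quasi-likelihood test, with p-values adjusted over all 15947 genes tested, and a gene was called at an adjusted p under 0.05 and a log2 fold change beyond 0.8. Of the 32 collagen genes tested, 3 were lower in GRDim than in GRWT mice on water and 0 were higher, where 5.47% of all genes were called lower and 5.02% higher. At the adjusted p alone, 4 of 32 members passed, against 38.7% of all genes in either direction. The members' median log2 fold change was -0.10 and 23 of 32 were negative, where the median over all genes was 0.00 and 50.3% were negative. That median rested on single libraries, at -0.26 without GRWT water ileum replicate 1, -0.05 without GRWT water IEC replicate 4 and -0.06 without GRWT water IEC replicate 5. It was -0.17 with the tissue label as covariate, with 29 of 32 negative. The major fibrillar and network chains were not among the called genes: no fibrillar chain had an adjusted p below 0.0906, and no basement membrane chain below 0.1005.

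Col13a1 fell most clearly. It encodes a collagen with a membrane-spanning segment that is found at sites where cells adhere to matrix, and at the nerve-muscle junction. Its level was 5.26, 6.44 and 7.14 CPM in GRWT mice on water and 3.13, 2.31 and 2.88 CPM in GRDim mice on water. Every GRDim library lay below every GRWT library, and the change was -1.16 ± 0.19 (adjusted p = 0.000199). On zinc it was at 4.79, 6.92 and 5.71 CPM in GRWT mice and 3.82, 4.94 and 3.84 CPM in GRDim mice, where the groups overlapped. The call held with the tissue label as covariate (-1.28, adjusted p = 8.09e-05) and with the summed smooth muscle markers as covariate (-0.90, adjusted p = 0.0134). It did not hold over all 22 libraries with the tissue label as covariate (-1.81, adjusted p = 0.576), a fit that mixes both sides of the split.

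Col8a2 was at 4.29, 3.67 and 4.12 CPM in GRWT mice on water and 0.912, 2.17 and 2.47 CPM in GRDim mice on water, again without overlap, a change of -1.10 ± 0.27 (adjusted p = 0.00496). With zinc it was at 2.27, 3.25 and 2.13 CPM in GRWT mice and 1.81, 1.82 and 1.92 CPM in GRDim mice, so that the GRDim libraries were below the GRWT ones there too. The change was -0.77 (adjusted p = 0.0149) without GRDim water IEC replicate 4, short of the fold threshold, and -0.91 (adjusted p = 0.101) with the smooth muscle markers as covariate. Col20a1 was at 1.95, 2.65 and 2.27 CPM in GRWT mice and 1.04, 1.45 and 1.35 CPM in GRDim mice on water, a change of -0.82 ± 0.28 (adjusted p = 0.0303). Its zinc values, 1.62, 2.59 and 1.86 CPM in GRWT and 0.903, 1.95 and 1.66 CPM in GRDim mice, overlapped. The Col20a1 call was lost in DESeq2 (adjusted p = 0.0713), with the smooth muscle markers as covariate (-0.40, adjusted p = 0.468) and on leaving out GRDim water IEC replicate 4 or 6 or GRWT water IEC replicate 4 or 5 (adjusted p 0.0620 to 0.112). Without GRDim water IEC replicate 4, 1 of the 3 calls was left, that of Col13a1.

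Col23a1, a transmembrane collagen like Col13a1, also fell but less than the fold threshold. It was at 15.73, 19.97 and 19.98 CPM in GRWT and 11.8, 11.9 and 13.2 CPM in GRDim mice on water, without overlap, a change of -0.58 ± 0.14 (adjusted p = 0.00445). With the smooth muscle markers as covariate it was -0.22 ± 0.14 (adjusted p = 0.269). With zinc its values were 15.1, 21.05 and 15.1 CPM in GRWT and 13.1, 16.8 and 17.03 CPM in GRDim mice, which overlapped. Col9a2 was too low for the count filter. Its level was 0.650, 0.481 and 0.618 CPM in GRWT mice on water, 0.971, 1.14 and 0.619 CPM in GRWT mice on zinc, 0.196, 0.198 and 0.294 CPM in GRDim mice on water and 0.278, 0.455 and 0.398 CPM in GRDim mice on zinc, so that all GRDim libraries lay below all GRWT libraries. With a weaker filter it was called lower in GRDim mice on water (-1.28 ± 0.44, adjusted p = 0.0374) and on zinc (-1.27 ± 0.38, adjusted p = 0.0340), a handful of reads per library. It also passed the filter in 10 of the fits that each left out 1 library. That filter admits a gene by its highest libraries, here those of GRWT mice on zinc, so these fits are not further support. The call held in 6 of them on water (adjusted p up to 0.0816) and in 8 on zinc (adjusted p up to 0.0880).

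The 250 bases before the start of the most clearly called genes, Col13a1 (chr10:61979109-61979358, minus strand) and Col8a2 (chr4:126286544-126286793, plus strand), are given from RefSeq on GRCm38.p6, 5′ to 3′ on the strand of the gene. Capitals mark TATAAA in Col13a1 and GGGCGG, on either strand, in Col8a2.
Col13a1: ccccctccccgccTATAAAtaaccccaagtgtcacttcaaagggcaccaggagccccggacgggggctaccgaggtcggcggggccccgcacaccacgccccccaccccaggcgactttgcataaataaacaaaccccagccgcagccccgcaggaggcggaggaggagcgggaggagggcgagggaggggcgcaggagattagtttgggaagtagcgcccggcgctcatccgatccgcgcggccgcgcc
Col8a2: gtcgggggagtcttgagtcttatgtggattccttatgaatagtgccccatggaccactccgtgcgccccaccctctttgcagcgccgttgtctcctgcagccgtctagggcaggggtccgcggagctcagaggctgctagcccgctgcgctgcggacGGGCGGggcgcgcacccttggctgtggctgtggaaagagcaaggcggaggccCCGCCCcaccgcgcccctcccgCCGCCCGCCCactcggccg
The TATAAA of Col13a1 lies 237 to 232 bases before the start. Col8a2 holds 4 matches to GGGCGG, at 93 to 88, 41 to 36, 19 to 14 and 15 to 10 bases before the start, the first on the gene's strand and the others on the opposite strand, and the last pair overlap. Over the windows from 250 bases before to the start, available for 30 of the 36 members, GGGCGG stood on either strand in 19, against 32.7% of 32851 windows of all genes. The median GC content of the members' windows was 59.4%, with a range of 35.2% to 76.4%, against 52.4% over all windows. CCAAT stood in 11 members and 33.8% of all windows, TATAAA in 4 members and 12.4%, and a CArG box in 1 member, Col6a4, and 1.47%. A match is a description of letters, not of a binding site.

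Marker levels of other cell types moved with the same comparison. All 10 smooth muscle markers were lower in GRDim mice on water, with a median log2 fold change of -0.40 and 6 at an adjusted p under 0.05, and their sum was 2516 to 2765 CPM in GRWT and 1936 to 2172 CPM in GRDim mice. With that sum as covariate the members' median turned from -0.10 to 0.21, with 8 of 32 negative. All 6 enteric neuron markers tested were negative, with a median of -0.56. Of the marker lists of vessels and the outer wall, 7 of 8 endothelium (median -0.28), 5 of 5 pericyte and vascular muscle (median -0.28), 3 of 3 interstitial cell of Cajal (median -0.13) and 4 of 4 mesothelium markers (median -0.59) were negative, and none was called. Fibroblast markers had a median of 0.00, with 4 of 7 negative and 0 called, and 1 of 10 epithelial markers was called lower. Of 6 T cell markers, 5 were called higher, and their sum was 25.7 to 35.0 CPM in GRWT and 129 to 145 CPM in GRDim mice. Of 6 plasma and B cell markers, 2 were called higher, with a median of 1.43 and sums of 1528 to 1934 CPM in GRWT and 3787 to 4736 CPM in GRDim mice. The part of these cells in the collagen values was not tested.

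**Figure D4:**
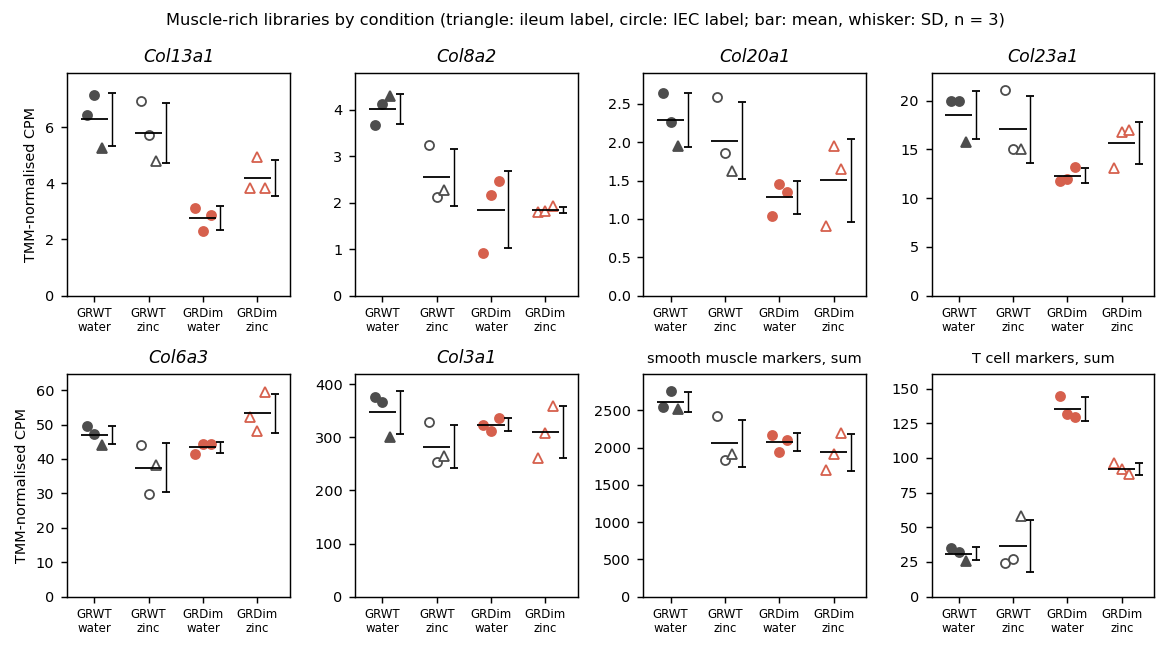
TMM-normalised CPM of 6 collagen genes and the summed smooth muscle and T cell markers in the muscle-rich libraries, by condition (triangle for the ileum label, circle for the IEC label, bar at the mean, whisker for the SD, n = 3). Col13a1 and Col23a1 lie lower in GRDim than in GRWT mice on water without overlap, as does the smooth muscle marker sum, while the T cell marker sum lies higher without overlap.

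Between the genotypes on zinc, 0 of 32 collagen genes were called higher and 0 lower by edgeR, where 2.43% of all genes were called higher and 1.97% lower. An unadjusted p under 0.05 was found in 4 of 32, against 32.1% of all genes, and DESeq2 called 0 in either direction. The median log2 fold change was 0.19 and 23 of 32 were positive, against a median of -0.02 over all genes. It was 0.02 without GRDim zinc ileum replicate 3 and 0.06 without GRWT zinc IEC replicate 5, so the lean rested on these libraries, and 0.39 with the tissue label as covariate. Col6a3 alone had an adjusted p under 0.05, where 18.8% of all genes did. It was at 38.4, 44.1 and 29.9 CPM in GRWT and 52.1, 48.2 and 59.5 CPM in GRDim mice on zinc, without overlap, a change of 0.49 ± 0.11 (adjusted p = 0.00847). On water its values were 44.2, 49.5 and 47.2 CPM in GRWT and 41.4, 44.4 and 44.2 CPM in GRDim mice, which overlapped. The next members were Col12a1 with 0.47 ± 0.17 (adjusted p = 0.0770) and Col13a1 with -0.48 ± 0.18 (adjusted p = 0.0789), the latter in the same direction as on water. In this comparison the tissue label differs too, since all 3 GRDim libraries on zinc are labelled ileum. Markers of other cell types moved here as well. Of 6 T cell markers 3 were called higher (median 1.03), with sums of 23.9 to 57.9 CPM in GRWT and 88.1 to 96.6 CPM in GRDim mice, and of 6 plasma and B cell markers 2 were called higher (median -0.16). All 6 enteric neuron markers were negative (median -0.41) and 1 was called lower, while 8 of 10 smooth muscle markers were negative (median -0.21) and 0 called. Their part in the collagen values was not tested.

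In GRWT mice, zinc moved no collagen gene past the threshold: edgeR called 0 of 32 higher and 0 lower, where 0.107% of all genes were called higher and 0.0564% lower. DESeq2 likewise called 0. At the adjusted p alone 0 members passed, against 0.383% of all genes in either direction, and 5 of 32 members had an unadjusted p under 0.05, against 11.5% of all genes. The values leaned one way, with 29 of 32 log2 fold changes negative and a median of -0.28, where 48.0% of all genes were negative and the median was 0.01. The median was -0.16 without GRWT zinc IEC replicate 5, -0.17 without GRWT water IEC replicate 4 and -0.19 without GRWT water IEC replicate 5. Col6a3 had the lowest p (-0.32 ± 0.11, adjusted p = 0.294), followed by Col8a2 (-0.65 ± 0.26, adjusted p = 0.363), Col3a1 (-0.29 ± 0.12, adjusted p = 0.381), Col6a1 (-0.30 ± 0.12, adjusted p = 0.390) and Col1a1 (-0.40 ± 0.17, adjusted p = 0.420). Col1a1 was at 51.9, 71.3 and 67.1 CPM on water and 42.5, 59.8 and 41.3 CPM on zinc, and the groups overlapped. All 5 beaded filament chains and 8 of 9 fibrillar chains were negative, while the multiplexins had a median of -0.02. Smooth muscle markers moved the same way, with 10 of 10 negative, a median of -0.32 and sums of 1840 to 2421 CPM on zinc against 2516 to 2765 CPM on water. All 7 fibroblast markers tested were negative as well, with a median of -0.31. All 4 mesothelium markers were negative with a median of -1.03 and 0 called, and their sums, 9.32 to 11.7 CPM on zinc and 19.2 to 27.4 CPM on water, did not overlap. The part of these cells in the collagen values was not tested. With the smooth muscle sum as covariate the members' median was 0.10 with 10 of 32 negative, so the direction of the list depended on that term.

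In GRDim mice, 0 of 32 collagen genes were called higher and 0 lower on zinc by edgeR, where 0.771% of all genes were called higher and 0.558% lower. At the adjusted p alone 0 members passed, against 7.70% of all genes in either direction, while 3 of 32 had an unadjusted p under 0.05, against 22.7% of all genes. DESeq2 called 0. The median was 0.05 with 14 of 32 negative, and it was -0.05 without GRDim zinc ileum replicate 3, 0.13 without GRDim zinc ileum replicate 1 and 0.03 without GRDim water IEC replicate 4. With the tissue label as covariate, whose effect then comes from the GRWT libraries alone, it was 0.32 with 4 of 32 negative, and with the smooth muscle markers as covariate 0.13 with 6 of 32 negative. Col13a1 had the lowest p, with a change of 0.58 ± 0.19 (adjusted p = 0.0802), and Col6a3 followed with 0.28 ± 0.11 (adjusted p = 0.151) and Col23a1 with 0.33 ± 0.14 (adjusted p = 0.182). All 10 epithelial markers were positive (median 0.14) and 1 was called higher, with sums of 18183 to 19562 CPM on water and 21148 to 22882 CPM on zinc. All 6 T cell markers were negative (median -0.54), with sums of 129 to 145 CPM on water and 88.1 to 96.6 CPM on zinc, as were all 10 smooth muscle markers (median -0.10), and 0 of either list were called. Their part in the collagen values was not tested. These are the libraries in which zinc and the tissue label cannot be told apart.

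Whether zinc acted differently in the genotypes was asked with an interaction term, the zinc effect in GRDim minus that in GRWT mice. At an adjusted p under 0.05, 0 of 32 members were called by edgeR, against 0.263% of all genes, and 4 had an unadjusted p under 0.05, a share of 12.5% beside 15.5% of all genes. The difference was positive in 29 of 32, with a median of 0.26 against -0.01 over all genes. The median was 0.16 without GRDim zinc ileum replicate 3 and 0.17 without GRWT zinc IEC replicate 5, and 0.40 without GRWT water ileum replicate 1 and 0.44 without GRWT zinc IEC replicate 4. Col6a3 had 0.59 ± 0.16 (adjusted p = 0.113), the only member that DESeq2 called (0.61, adjusted p = 0.0191), and Col4a5 had 0.61 ± 0.22 (adjusted p = 0.215). The other members with a p under 0.05 were Col13a1 with 0.68 ± 0.26 (adjusted p = 0.228) and Col23a1 with 0.44 ± 0.20 (adjusted p = 0.304). With the smooth muscle sum as covariate the median was 0.04 and 18 of 32 were positive, and with the tissue label it was 0.55 with 30 positive. Of the marker lists, 10 of 10 smooth muscle (median 0.21) and 7 of 7 fibroblast markers (median 0.20) were positive and 6 of 6 T cell markers negative (median -1.10), and 0 of them were called. All 5 comparisons share libraries, so their values are set side by side and not counted as separate evidence.

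**Figure D5:**
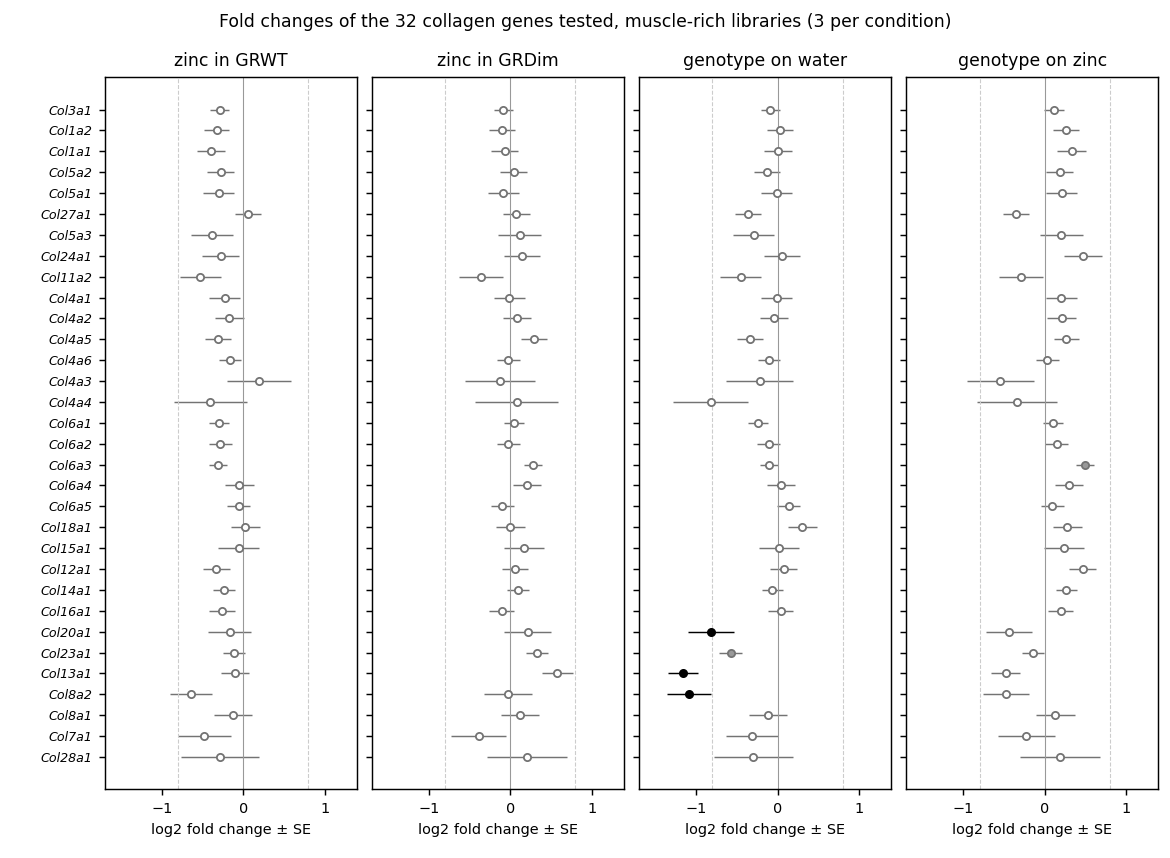
Log2 fold change (horizontal axis) of each of the 32 collagen genes tested in 4 comparisons of the 12 muscle-rich libraries, with error bars of 1 SE and dashed lines at the fold threshold of 0.8 (black for called genes, grey fill for an adjusted p under 0.05 alone, open for the rest). The genotype comparison on water holds the 3 called genes, Col13a1 at -1.16, Col8a2 at -1.10 and Col20a1 at -0.82, and in GRWT mice on zinc 29 of 32 points lie below 0.

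Genes that fold, cut, cross-link, bind or break down collagen were read from 8 lists, with 119 genes tested. On water 3 were called higher and 6 lower in GRDim mice, with the backgrounds given above. Of 22 folding and modification genes, 2 were lower. Plod2, which hydroxylates lysines of the telopeptides and so sets the type of cross-link, was at 28.5, 21.4 and 21.8 CPM in GRWT and 9.71, 10.6 and 12.2 CPM in GRDim mice on water. The change was -1.13 ± 0.17 (adjusted p = 0.000236) on water and -1.27 ± 0.18 (adjusted p = 0.000452) on zinc, where the values were 19.3, 22.6 and 14.5 CPM and 6.53, 8.91 and 8.15 CPM. P4ha2, a prolyl 4-hydroxylase subunit, fell by 0.85 on the log2 scale on water (adjusted p = 0.00609), but the change was -0.71 without GRDim water IEC replicate 5, -0.77 without GRWT water IEC replicate 5 and -0.33 (adjusted p = 0.359) with the smooth muscle markers as covariate. P3h4, a partner of lysyl hydroxylation, fell by 0.97 on zinc (adjusted p = 0.0129), and its adjusted p was 0.0522 without GRDim zinc ileum replicate 2. In the processing and cross-linking list, 1 of 13 genes was lower and 1 higher in GRDim mice on either water.

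Bmp1 encodes the protease that removes the C-terminal propeptide of fibrillar procollagens. It was at 49.3, 41.4 and 42.2 CPM in GRWT and 11.9, 9.49 and 11.3 CPM in GRDim mice on water, a change of -2.01 ± 0.10 (adjusted p = 3.43e-09), larger than that of any collagen gene tested. On zinc it was at 41.3, 44.0 and 39.0 CPM in GRWT and 16.6, 18.1 and 16.4 CPM in GRDim mice (-1.30 ± 0.09, adjusted p = 3.49e-07), and the interaction was 0.71 ± 0.13 (adjusted p = 0.0424). The interaction lost its call in 9 of 12 fits that each left out 1 library (adjusted p 0.0567 to 0.132) and with the tissue label as covariate (0.58, adjusted p = 0.116). The genotypes did not overlap on either water, while the levels of its fibrillar substrates Col1a1, Col1a2 and Col3a1 overlapped between genotypes. Tgm2, a transglutaminase that cross-links matrix proteins, was higher in GRDim mice on water (0.94 ± 0.14, adjusted p = 0.000535) and on zinc (0.83 ± 0.14, adjusted p = 0.00313). On water it was 0.76 without GRWT water ileum replicate 1, and on zinc 0.77 without GRDim zinc ileum replicate 2 and 0.78 without GRWT zinc ileum replicate 1, all short of the fold threshold.

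Lama3, a laminin chain of the epithelial basement membrane, was at 60.4, 52.6 and 50.8 CPM in GRWT and 24.9, 32.6 and 22.1 CPM in GRDim mice on water, a change of -1.03 ± 0.15 (adjusted p = 0.000263). On zinc it was at 49.2, 53.9 and 51.6 CPM in GRWT and 72.1, 62.4 and 54.5 CPM in GRDim mice. It rose with zinc in GRDim mice (1.23 ± 0.15, adjusted p = 0.00115), with an interaction of 1.31 ± 0.20 (adjusted p = 0.0350). That interaction lost its call in 8 of 12 fits that each left out 1 library (adjusted p 0.0567 to 0.108) and with the tissue label as covariate (1.22, adjusted p = 0.0957). In the muscle-poor libraries alone its genotype change on water was 0.06. Lama1 was higher in GRDim mice on water (0.91 ± 0.34, adjusted p = 0.0456) and Lamc3 lower on zinc (-0.85 ± 0.27, adjusted p = 0.0415), so that in all 2 of 15 laminin and basement membrane genes were called on water and 1 on zinc. Leaving out 1 library ended the Lama1 call in 6 of 12 fits and the Lamc3 call in 8 of 12. Fmod, which binds collagen fibrils, was lower on zinc (-1.60 ± 0.49, adjusted p = 0.0330), at 0.199 to 2.46 CPM in the libraries compared. Its highest value was in GRWT zinc ileum replicate 1, without which the change was -0.85 (adjusted p = 0.193), and it also lost its call without GRDim zinc ileum replicate 2 or 3 (adjusted p 0.0687 and 0.123).

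Of 16 genes of collagen breakdown, Mmp9, a gelatinase, fell by 1.29 on the log2 scale (adjusted p = 0.00106) and Mmp16 by 0.91 (adjusted p = 0.0340) in GRDim mice on water. With the smooth muscle markers as covariate Mmp9 had a change of -1.02 (adjusted p = 0.0518). Mmp16 lost its call without GRDim water IEC replicate 4 or GRWT water IEC replicate 4 or 5 (adjusted p 0.0556 to 0.141). Of 9 collagen receptors, Lair1, an inhibitory receptor of leukocytes, rose by 0.96 (adjusted p = 0.000414) on water, and by 0.76 without GRWT water ileum replicate 1. It was 11.8 to 12.4 CPM in GRDim and 4.42 to 8.001 CPM in GRWT libraries, beside the higher T cell markers given above and macrophage markers with a median of 0.44. None of 15 elastic fibre genes and none of 13 TGF-beta ligands, receptors and early targets was called by edgeR or DESeq2 in the comparisons run, where by edgeR 3 and 5 had an unadjusted p under 0.05 on water, against 47.0% of all genes. In GRWT mice on zinc no gene of the 8 lists was called and 96 of 119 were negative, with a median of -0.17.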

How the data were processed

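The authors made stranded single-end libraries, aligned reads to mouse build mm10 with HISAT2 2.0.4, counted them per gene with featureCounts and left out reads mapping to several places. The deposited file holds raw read counts for 54838 genes in 22 libraries. The annotation release and the strand setting are not given in the sources used here, so genes that overlap another are named as uncertain. A pair of GRDim water ileum columns shares a single name and stays unnumbered.

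Gene models came from GENCODE vM21, where 54809 gene identifiers were found. Upstream windows came from RefSeq (GRCm38.p6) for 30 of 36 members, with none for Col12a1, Col14a1, Col1a1, Col22a1, Col4a3 and Col5a2. Levels are CPM (counts scaled to library size) normalised by the trimmed mean of M-values (TMM) over all 22 libraries. Values per kilobase used the longest principal transcript of a gene. Myh11 above 100 CPM before normalisation defined muscle-rich libraries.

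The test was edgeR 4.0.16 (R 4.3.3) with robust quasi-likelihood, TMM and filterByExpr on the 12 muscle-rich libraries, with 3 per condition, 4 conditions in 1 model, 8 residual degrees of freedom and Benjamini-Hochberg adjustment. The study's cut-offs were kept (adjusted p 0.05, log2 fold change 0.8, with the adjusted p alone for the interaction). Of the members, 32 passed the filter, and Col9a2, Col17a1, Col22a1 and Col25a1 did not. The fit was tested on simulated data. Alternatives were DESeq2 1.42.0, its size factors, other filters, other covariates and libraries left out. Values in every muscle-rich library are given for called members and for the 2 most abundant per kilobase of each class. The 3 highest and 3 lowest ratios, members at or under 3 counts in most libraries and up to 5 called genes per list are also named. Members and lists were chosen with earlier results of these data known. One marker list is not reported here.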

Additional observations from a re-analysis of the deposited data

Results flagged for a closer look

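Several collagen values in the muscle-poor libraries had 1 library far from the other 9, by Dixon's test at 95%. Chance passes it in about 1 of 20 groups of normally spread values, a rate that does not hold for levels of a few reads. A gene with reads in a single library passes at any level. Of 45 groups checked, 9 passed, a count that cannot be read against that rate. The levels were 0.0776 CPM of Col22a1 in GRDim zinc IEC replicate 4 and 0.0839 CPM of Col24a1 in GRWT water ileum replicate 2, each the single muscle-poor library with a read. They were 0.319 CPM of Col25a1 and 0.532 CPM of Col13a1 in GRWT zinc ileum replicate 3 (next highest 0.0776 and 0.1525 CPM), 0.224 CPM of Col9a2 in GRDim zinc IEC replicate 5 (next 0.0786) and 0.234 CPM of Col5a3 in GRDim zinc IEC replicate 6 (next 0.0786). Each of these levels rests on a few reads. Ratios per kilobase were 2.63 for Col5a1 to Col5a2 in the unnumbered GRDim water ileum library b (next 1.18), 4.02 for Col6a3 to Col6a1 in GRDim zinc IEC replicate 4 (next 1.93) and 0.371 for Col6a4 to Col6a1 in GRWT zinc ileum replicate 3 (next 0.177).

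The zinc effect differed between genotypes, by the interaction term of edgeR's quasi-likelihood test, for 2 genes of the matrix lists: Lama3 with 1.31 (adjusted p = 0.0350) and Bmp1 with 0.71 (adjusted p = 0.0424). Both calls were lost in most fits that each left out 1 library, and the tissue label differs between the GRDim conditions compared.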

How the results depend on the processing

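The count of collagen genes lower in GRDim mice on water (3) was 1 over all 22 libraries with the muscle split as covariate, 0 over all 22 with the tissue label, 1 with the smooth muscle markers as covariate and 0 in the 10 muscle-poor libraries alone, an alternative added after seeing the data. It was 1 to 4 with 1 library left out. The count lower on zinc (0) was 1 with a weaker filter and 0 to 1 with 1 library left out, the gene being Col9a2, which entered the test. The interaction count (0) was 1 in DESeq2 and 0 to 1 with 1 library left out, Col6a3 in both. The median muscle-rich to muscle-poor ratio of 25.4 ran from 23.6 to 30.3 with 1 library left out, the highest without GRDim zinc IEC replicate 5. Reversed values were 0.013 for Col20a1 and 0.057 for Lama3 (genotype on water, muscle-poor libraries alone), and 0.039 for Col3a1 and 0.033 for Col1a1 (zinc in GRWT mice, smooth muscle markers as covariate); the cause was not tested. Counts of higher genes and of zinc effects did not move. The members' median log2 fold change over all 22 libraries with the tissue label, which mixes both sides of the split, was -0.79 between genotypes on water, 0.64 on zinc, 1.21 for zinc in GRDim mice, -0.17 in GRWT mice and 1.49 for the interaction. For zinc in GRDim mice it was 0.11 over all 22 with the muscle split and 0.10 over 21. Over 29 named genes and comparisons, 543 of 677 alternative values kept their direction and their state, called or uncalled. Of the rest, 128 lost the call, 2 gained one and 4 reversed. Results without a call in the main fit, such as Col3a1 and Col1a1 for zinc in GRWT mice, count as kept while uncalled. The 543 values are therefore not all calls that held. Same-numbered libraries of different conditions were not alike: over 9 such pairs the correlation of deviations ran from -0.11 to 0.15. Over the other 45 pairs it ran from -0.26 to 0.30. Libraries of the same condition were not compared, so whether any of them share an animal was not tested. With a replicate block the members' median was -0.18 on water, 0.13 on zinc, 0.11 for zinc in GRDim mice and 0.39 for the interaction, 4 members were lower on water, Col4a4 added, Col13a1 had -1.31 (adjusted p = 0.00236) and Col6a3 on zinc had 0.50 (adjusted p = 0.210). Depth limited the lowest members, which had at most a few reads per library, and 4 of 36 were not tested.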
